A study of Mus musculus with 9 samples.

Results

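The collagen chain genes of the mouse heart were described across pressure overload and across deletion of Myc in fibroblasts. Members were all rows of the gene count table whose symbol reads Col, digits, a, digits with nothing after, and that had 10 or more counts in at least 3 of the 9 libraries. The pattern found 44 rows among 55401, and 37 met the count rule. Of these, 9 encode fibrillar chains, 6 chains of type IV, 7 fibril-associated chains (FACIT), 5 chains of type VI and 10 other chains. The 7 rows left out were Col2a1, Col6a4, Col9a1, Col10a1, Col17a1, Col19a1 and Col24a1, of which Col6a4 and Col9a1 had no count in any library. The member nearest to the count rule was Col11a1, with 10, 19 and 31 counts in its 3 libraries of 10 or more, and Col24a1 stood just outside with 12 and 20 counts in 2 libraries.

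Collagens are trimers of alpha chains wound into a triple helix, and each chain has its own gene. Fibrillar collagens (types I, III, V and others) form the tension-bearing fibres of the heart's interstitium and are made mostly by fibroblasts. Type IV forms the sheet of the basement membrane around cardiomyocytes and capillaries, FACIT collagens sit on the surface of fibrils, type VI forms beaded microfibrils at the cell border, and type VIII forms short networks in vessels and in remodelling tissue. Deposition of fibrillar collagen is a hallmark of the pressure-overloaded heart.

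RNA of whole hearts was sequenced in 3 groups of 3 libraries. Control hearts came from wild-type mice, the sham-operated arm of the design. TAC hearts are wild-type hearts titled 12 weeks after transverse aortic constriction (TAC), an operation in which a ligature on the aortic arch raises the pressure the left ventricle must pump against. KO-TAC hearts, also titled 12 weeks, had the same operation in c-Myc knockout mice, in which floxed c-Myc alleles are cut by an inducible Cre (MerCreMer) driven from Tcf21, a gene of cardiac fibroblasts. The design describes male mice of 8 to 12 weeks at surgery and tamoxifen, which switches this Cre on, at 45 mg/kg for 5 days. The labels do not say whether wild-type mice received tamoxifen, and neither unloaded knockout hearts nor hearts with Cre alone were analysed here, so Myc deletion, Cre and tamoxifen cannot be told apart in comparisons with KO-TAC. The labels number the hearts but do not tie each to a separate mouse, so the p-values cover the spread between these libraries, which may be technical.

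Libraries held 59702513 to 109162107 counts, and each of the 37 genes was kept by the low-count filter. Levels are CPM, counts relative to the library total after TMM scaling, and levels of different genes are compared as CPM per kilobase of the principal coding transcript. Myc, the targeted gene, was at 2.15, 2.47 and 1.55 CPM in control hearts, 8.93, 6.22 and 14.2 CPM in TAC hearts and 4.22, 1.87 and 4.75 CPM in KO-TAC hearts (KO-TAC against TAC, edgeR adjusted p = 0.56). The 8 cardiomyocyte markers, which check the tissue, summed to 69098 to 70875 CPM in control hearts and 35545 to 63715 CPM in KO-TAC hearts. In TAC hearts the sum was 32896, 75385 and 10790 CPM in replicates 1, 2 and 3, so the TAC hearts stood far apart.

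Upstream sequences are shown for 4 members whose values the results turn on: the most abundant fibrillar chain (Col3a1), the pair of type VIII chains with high values in loaded hearts (Col8a1 and Col8a2), and the type VI chain that was lower there (Col6a6). They are from RefSeq's table for GRCm38.p6, 5′ to 3′ on the gene's strand, and end before the first annotated exon. Capitals mark the motifs searched on both strands: the CCAAT box, the GC box GGGCGG, the TATA box TATAAA, the E-box CACGTG that Myc binds with Max, the AP-1 site TGANTCA and the TEAD site CATTCC. Overlapping matches were each counted.
Col3a1 (chr1:45311288-45311537, plus strand): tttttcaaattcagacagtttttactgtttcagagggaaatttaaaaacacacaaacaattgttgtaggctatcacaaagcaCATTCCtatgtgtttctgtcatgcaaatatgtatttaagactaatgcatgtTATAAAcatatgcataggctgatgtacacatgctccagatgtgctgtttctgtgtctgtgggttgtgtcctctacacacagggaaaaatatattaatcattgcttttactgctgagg
Col8a1 (chr16:57754738-57754987, minus strand): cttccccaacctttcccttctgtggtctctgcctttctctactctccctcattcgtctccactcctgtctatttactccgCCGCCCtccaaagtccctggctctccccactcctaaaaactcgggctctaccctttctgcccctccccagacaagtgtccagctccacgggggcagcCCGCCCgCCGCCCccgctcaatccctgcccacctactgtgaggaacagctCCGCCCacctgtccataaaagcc
Col8a2 (chr4:126286544-126286792, plus strand): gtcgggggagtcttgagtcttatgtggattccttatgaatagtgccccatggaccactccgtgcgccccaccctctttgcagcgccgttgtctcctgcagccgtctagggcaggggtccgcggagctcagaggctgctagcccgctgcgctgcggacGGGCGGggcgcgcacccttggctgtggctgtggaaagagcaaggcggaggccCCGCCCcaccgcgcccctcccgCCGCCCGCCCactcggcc
Col6a6 (chr9:105828161-105828335, minus strand): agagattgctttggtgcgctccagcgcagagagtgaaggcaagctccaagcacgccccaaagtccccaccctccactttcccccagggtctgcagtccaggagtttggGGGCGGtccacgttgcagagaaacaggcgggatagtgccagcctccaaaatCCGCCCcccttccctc
The Col3a1 window holds 1 TATAAA and 1 CATTCC and no GC box. The Col8a1 and Col8a2 stretches hold 4 GC boxes each in 250 and 249 bases. The Col6a6 stretch is shorter, with 75 annotated exon bases cut, and holds 2 in 175 bases.

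Of the 37 members, 29 had a window of 250 bases upstream of the start in that table. The GC box was found in 20 of the 29 members (69.0%) and in 32.7% of all 32851 windows of the same length. CCAAT was found in 10 members (34.5%; 33.8% of all windows), TATAAA in 3 (10.3%; 12.4%) and CATTCC in 4 (13.8%; 12.6%). TGANTCA was found in 1 member, Col6a1 (3.4%; 6.7%), and CACGTG in 0 members (6.0% of all windows). A member was counted once if any of its windows held the motif, whereas the share of all windows counts each window, with no filter on expression. A match describes the letters only, and windows cover no enhancer. In the annotation, the type IV genes lie in head-to-head pairs: the starts of Col4a1 and Col4a2 on chromosome 8 overlap by 22 bases, those of Col4a4 and Col4a3 on chromosome 1 lie 72 bases apart, and those of Col4a6 and Col4a5 on chromosome X lie 1309 bases apart. The counting's strand setting is not known from the labels, so reads from overlapping antisense models cannot be told apart from those of the collagen gene.

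In control hearts the most abundant collagen transcripts were those of the basement membrane. Col4a1 and Col4a2, the chains of the ubiquitous type IV trimer, were at 64.7 ± 6.73 and 54.5 ± 4.82 CPM per kilobase (SD, n = 3). Col3a1, the single chain of type III collagen, followed at 33.3 ± 3.02. Col6a2, Col6a1 and Col15a1 came next at 20.6 ± 0.450, 19.7 ± 0.291 and 19.3 ± 0.548, and Col1a2, a chain of type I collagen, at 18.8 ± 1.30. From Col6a1 to Col1a2 in this order, neighbours differed by less than the larger of their SDs. Col1a1, the other type I chain, was at 12.4 ± 1.36 CPM per kilobase. At the low end stood Col12a1 at 0.0609 ± 0.0108, Col6a5 at 0.0259 ± 0.0147 and Col11a1 at 0.00697 ± 0.00637. The order from the fourth gene on depended on the transcript length. With the union of all exons in place of the principal transcript, Col4a1, Col4a2 and Col3a1 still led at 57.4, 53.1 and 18.9 CPM per kilobase, followed by Col6a1 at 18.4, Col15a1 at 15.7, Col1a1 at 11.2, Col6a2 at 9.79 and Col1a2 at 8.10.

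All 44 collagen rows together took 0.145% to 0.164% of the counts of a control library. They took 0.251%, 0.136% and 0.579% in TAC replicates 1, 2 and 3, and 0.209%, 0.192% and 0.154% in KO-TAC replicates 1, 2 and 3. These are shares of library totals before TMM scaling. In CPM the rows summed to 1774, 1564 and 1783 in control hearts and 2643, 1580 and 4001 in TAC hearts. The KO-TAC hearts were at 1678, 1907 and 1667 CPM, with replicates 1 and 3 in the control range. Type IV held the largest share of length-scaled collagen counts in control hearts (45.8%, 43.2% and 44.4%), ahead of fibrillar (27.6%, 28.2% and 29.3%) and type VI (15.7%, 17.6% and 15.3%). Fibrillar chains reached 33.1% and 36.9% in TAC replicates 1 and 3 but 23.9% in TAC replicate 2, and 34.7%, 32.0% and 26.3% in the KO-TAC hearts. FACIT chains were a small part throughout, at 1.32% to 1.66% in control hearts, 1.56% to 3.37% in TAC hearts and 1.53% to 3.27% in KO-TAC hearts. Groups overlapped for both classes.

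**Figure D1:**
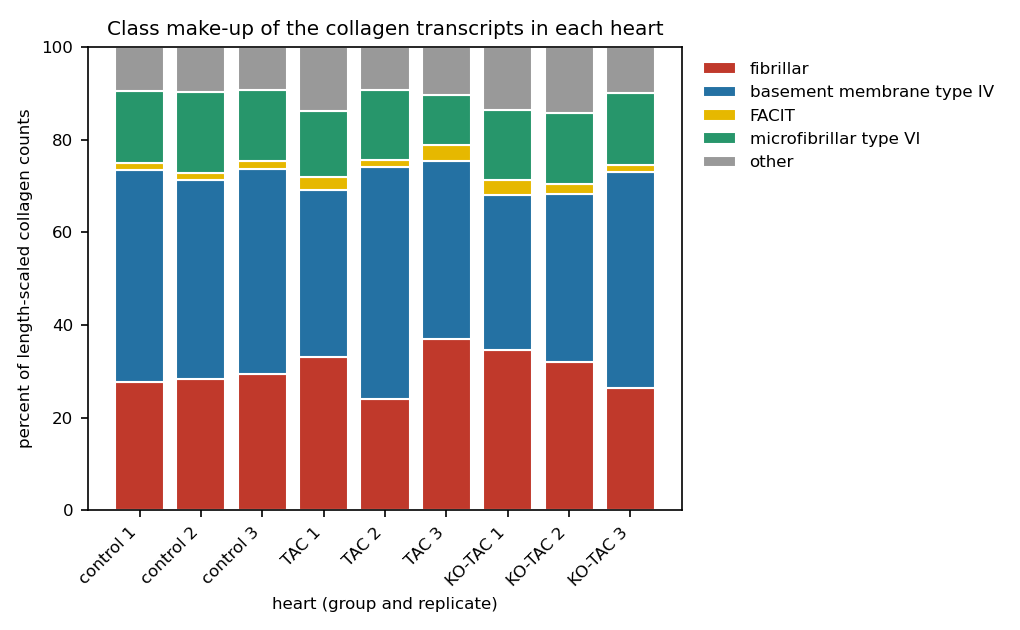
Stacked bars of the share of length-scaled collagen counts held by each class (y axis, percent) in each of the 9 hearts (x axis). The fibrillar share is highest in TAC replicate 3 (36.9%) and KO-TAC replicate 1 (34.7%) and lowest in TAC replicate 2 (23.9%), where type IV holds 50.2%.

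Comparison of TAC with control asked which collagen genes differed in wild-type hearts under pressure overload. The median log2 difference of the 37 collagen genes was 0.85, against 0.03 over all 19051 genes tested, and 32 were higher and 5 lower. None passed at an adjusted p under 0.05 in edgeR's quasi-likelihood test, as for all genes (0% called), and the lowest adjusted p of a collagen gene was 0.13. At an unadjusted p under 0.05, 12 members were higher (13.2% of all genes were) and 0 lower (8.08% were). FACIT genes had the highest class median (1.87, 7 of 7 higher), then fibrillar genes (1.26, 8 of 9 higher), the other chains (0.71, 8 of 10), type IV (0.56, 5 of 6) and type VI (0.39, 4 of 5). Without TAC replicate 3 these medians were 0.97 for FACIT, 0.64 for fibrillar, 0.43 for the other chains, 0.21 for type IV and 0.09 for type VI genes. A change in the share of cells of a type and a change in RNA per cell, in either direction, cannot be told apart in these whole-tissue values.

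The 3 TAC hearts did not share this pattern. Relative to the control mean, the median log2 value of the 37 genes was 0.90 in TAC replicate 1, -0.13 in TAC replicate 2 and 1.35 in TAC replicate 3. TAC replicate 1 had 30 members above all control hearts, replicate 2 had 6 and replicate 3 had 33. Below all control hearts were 3 members in TAC replicate 1, 18 in replicate 2 and 2 in replicate 3. TAC replicate 3 was the highest of the 9 hearts for 28 members. Without TAC replicate 2 the median difference was 1.13 and 20 members passed edgeR's test (13.5% of all genes passed upward), while without TAC replicate 3 it was 0.51 and 0 passed. DESeq2 called 8 members higher at an adjusted p under 0.05 (5.68% of all genes): Col7a1, Col8a1, Col8a2, Col11a2, Col12a1, Col16a1, Col22a1 and Col27a1. The limma-voom fit with quality weights, which gives a library that stands apart less weight, called 20 higher (18.2% of all genes) and 1, Col6a6, lower (19.8%).

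**Figure D2:**
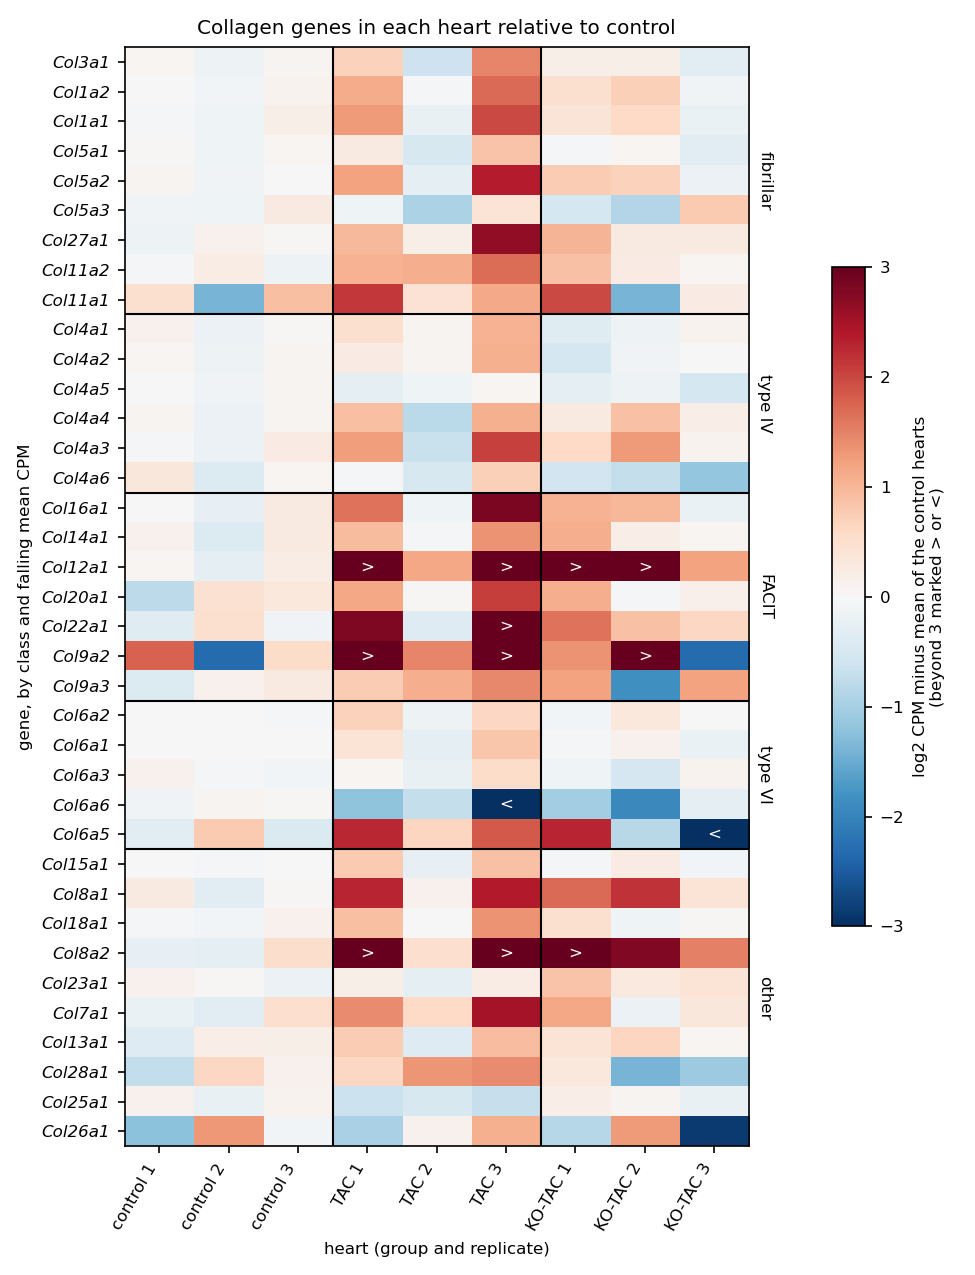
Heat map of the 37 collagen genes (rows, by class) in the 9 hearts (columns); colour gives log2 CPM minus the mean of the control hearts, with values beyond 3 marked. TAC replicates 1 and 3 are red for most genes, and Col6a6 is blue in all 3 TAC hearts. TAC replicate 2 is paler, with 6 genes above and 18 below all control hearts.

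Among fibrillar chains, Col3a1 (ENSMUSG00000026043.18, chr1:45311538-45349706 in GRCm38, plus strand) was at 193.2, 166.1 and 196.9 CPM in control hearts, 301.0, 119.3 and 511.4 CPM in TAC hearts and 209.2, 209.2 and 146.7 CPM in KO-TAC hearts. TAC replicates 1 and 3 lay above every control heart and TAC replicate 2 lay below them. Its difference of TAC from control was 0.74 on the log2 scale (SE 0.45, edgeR adjusted p = 0.34), 0.17 without TAC replicate 3 and 1.12 without TAC replicate 2 (edgeR adjusted p = 0.022). Col1a2 was at 98.7, 94.8 and 108.3 CPM in control hearts, 217.6, 98.5 and 326.5 CPM in TAC hearts and 140.6, 166.0 and 93.6 CPM in KO-TAC hearts. Col1a1 was at 71.8, 66.5 and 82.3, then 177.9, 62.6 and 289.6, and then 96.1, 110.7 and 63.8 CPM in the same order. Both type I chains were thus near the control level in TAC replicate 2 and in KO-TAC replicate 3, and the groups overlapped. The TAC differences were 1.09 for Col1a2 (SE 0.40, edgeR adjusted p = 0.18) and 1.26 for Col1a1 (SE 0.47, edgeR adjusted p = 0.18). Without TAC replicate 2 they were 1.43 and 1.66, with edgeR adjusted p of 0.012 and 0.011, and without TAC replicate 3 they were 0.64 and 0.70.

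Type V collagen sits inside type I fibrils and sets their diameter, and its chains differed. Col5a2 was at 26.7 to 30.3 CPM in control hearts and at 65.9, 23.9 and 145.8 CPM in TAC replicates 1 to 3, whereas Col5a1 was at 49.9 to 56.8 CPM and then 65.7, 38.6 and 97.6 CPM. The third chain, Col5a3, showed no common direction, at 28.0, 27.5 and 36.3 CPM in control hearts, 27.5, 15.7 and 40.3 CPM in TAC hearts and 21.2, 16.3 and 52.2 CPM in KO-TAC hearts. Its TAC difference was -0.14 (SE 0.45, edgeR adjusted p = 0.87), but 0.24 with library size alone as the scaling. Col11a2, a minor chain of type XI collagen known best from cartilage, was higher in all 3 TAC hearts, TAC replicate 2 included: 3.30, 4.02 and 3.10 CPM in control hearts against 7.18, 7.36 and 11.1 CPM in TAC hearts. Its difference was 1.30 with SE 0.29 (adjusted p of 0.13 in edgeR and 0.0029 in DESeq2), and 1.06 without TAC replicate 3. It was singled out after its values were seen, as was Col1a1.

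The FACIT class was led by Col12a1. Col12a1 (ENSMUSG00000032332.17, chr9:79598991-79718831 in GRCm38, minus strand, with the antisense model 4930562D21Rik inside it), which encodes a fibril-surface collagen of tendon and other tissue under strain, was at 0.724, 0.567 and 0.813 CPM in control hearts, 18.6, 1.59 and 24.0 CPM in TAC hearts and 8.07, 6.87 and 1.62 CPM in KO-TAC hearts. Every heart of both loaded groups lay above every control heart, and TAC replicate 2 and KO-TAC replicate 3 were the lowest of the loaded hearts. The TAC difference was 4.39 with SE 0.94 (adjusted p of 0.13 in edgeR and 1.5e-05 in DESeq2). Leaving out 1 library gave log2 differences of 3.83 to 4.91. Col22a1, a collagen of the muscle-tendon junction, was at 0.569, 1.04 and 0.694 CPM in control hearts, 5.34, 0.562 and 7.36 CPM in TAC hearts and 2.36, 1.41 and 1.16 CPM in KO-TAC hearts. TAC replicate 2 lay below every control heart, so the groups overlapped, and TAC exceeded control by 2.53 on the log2 scale with SE 0.76 (adjusted p of 0.15 in edgeR and 0.014 in DESeq2). Col16a1 was at 8.80, 7.46 and 10.7 CPM in control hearts, 27.4, 8.14 and 63.4 CPM in TAC hearts and 18.3, 17.6 and 7.78 CPM in KO-TAC hearts. Its difference of 1.87 with SE 0.62 (adjusted p of 0.16 in edgeR and 0.034 in DESeq2) was 0.97 without TAC replicate 3, and TAC replicate 2 and KO-TAC replicate 3 lay within the control range. Col14a1, the other abundant FACIT, was at 11.7, 8.00 and 12.8 CPM in control hearts, 20.7, 10.1 and 27.1 CPM in TAC hearts and 22.8, 12.1 and 11.1 CPM in KO-TAC hearts.

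Both chains of type VIII collagen, the short-chain network of vessels, had higher means in TAC than in control hearts. Col8a1 (ENSMUSG00000068196.5, chr16:57624258-57754737 in GRCm38, minus strand) was at 27.1, 17.7 and 23.0 CPM in control hearts, 109.1, 24.6 and 116.6 CPM in TAC hearts and 72.3, 100.3 and 29.5 CPM in KO-TAC hearts. TAC replicate 2 alone of the 6 loaded hearts lay within the control range. The TAC difference was 1.88 with SE 0.58 (adjusted p of 0.15 in edgeR and 0.022 in DESeq2). Col8a2 (ENSMUSG00000056174.8, chr4:126286793-126314330, plus strand) was at 0.310, 0.307 and 0.550 CPM in control hearts, 8.32, 0.546 and 14.6 CPM in TAC hearts and 7.71, 2.73 and 1.12 CPM in KO-TAC hearts, and its TAC difference was 4.32 with SE 1.10 (adjusted p of 0.14 in edgeR and 0.00037 in DESeq2). The level of Col8a1 exceeded that of Col8a2 in all 9 hearts, and the ratio of length-scaled counts was 74.1, 49.1 and 35.4 in control hearts, 11.1, 38.2 and 6.77 in TAC hearts and 7.95, 31.2 and 22.4 in KO-TAC hearts.

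**Figure D3:**
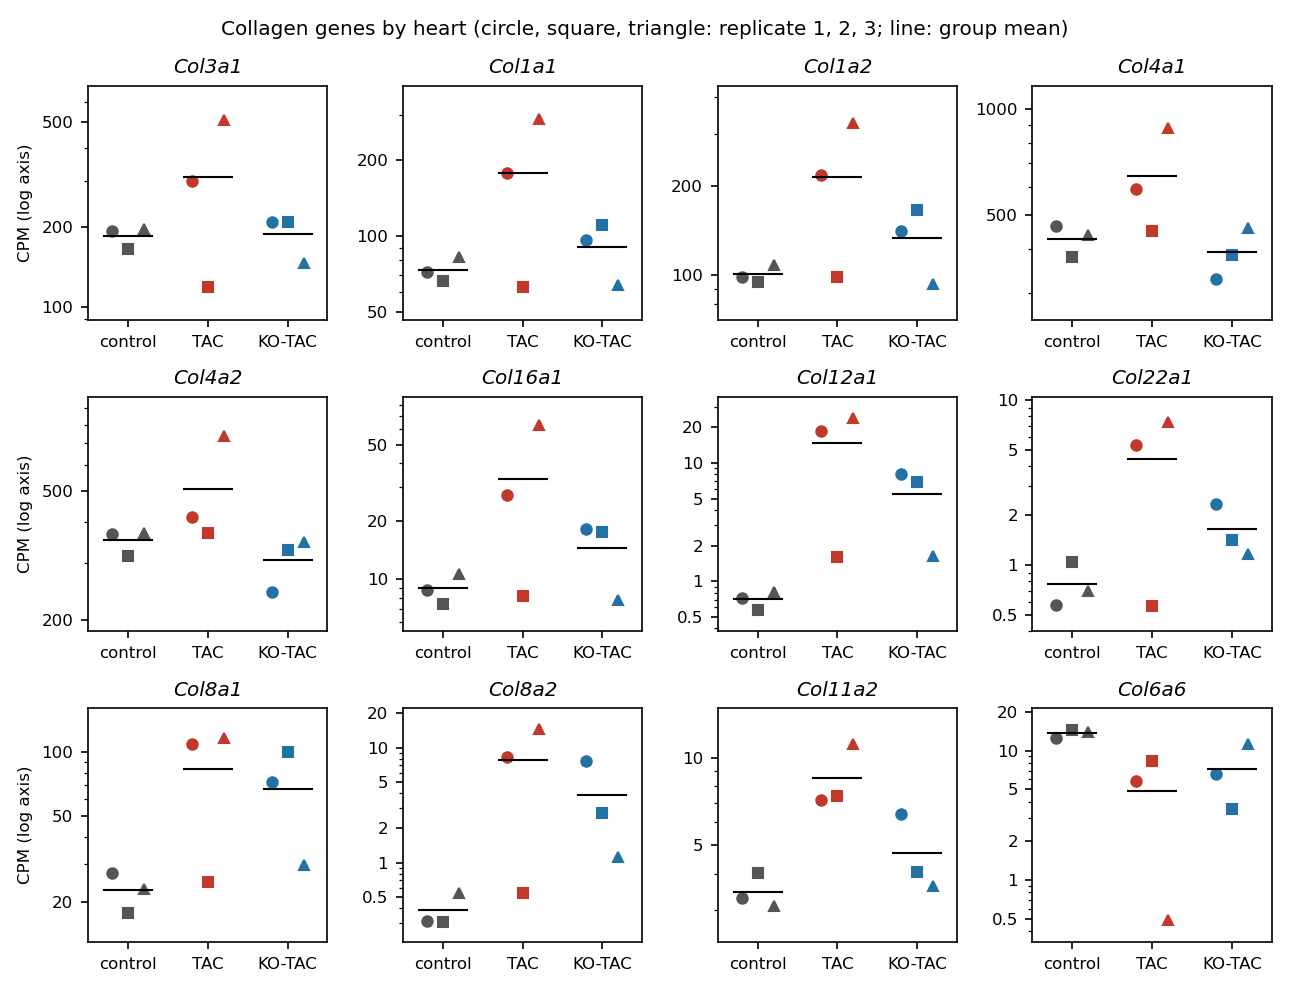
CPM of 12 collagen genes (y axes, log scale) in each heart of the 3 groups (x axes), with replicates 1, 2 and 3 as circle, square and triangle and the group mean as a line. TAC replicate 2 (red square) lies nearer to the control hearts than TAC replicates 1 and 3 do for most genes. For Col12a1 it is at 1.59 CPM, above the control hearts (0.567 to 0.813 CPM) but below TAC replicates 1 and 3 (18.6 and 24.0 CPM). All 3 TAC hearts lie below control for Col6a6.

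The basement membrane chains differed less. Col4a1 was at 466.1, 379.2 and 439.4 CPM in control hearts, 593.6, 451.5 and 883.2 CPM in TAC hearts and 330.0, 384.9 and 460.0 CPM in KO-TAC hearts. Col4a2 was at 368.3, 315.8 and 370.9, then 416.2, 370.2 and 736.2, and then 243.6, 327.6 and 347.6 CPM in the same order. TAC replicate 3 carried most of both differences, which were 0.59 for Col4a1 (SE 0.31, edgeR adjusted p = 0.30) and 0.53 for Col4a2 (SE 0.32, edgeR adjusted p = 0.34) and were 0.28 and 0.15 without it. Col4a5, an X-linked chain, was at 44.6, 40.8 and 46.3 CPM in control hearts, 35.9, 39.7 and 45.9 CPM in TAC hearts and 36.7, 39.6 and 30.6 CPM in KO-TAC hearts. Its TAC difference of -0.12 (SE 0.18, edgeR adjusted p = 0.71) became 0.18 with library size alone, and lay between -0.23 and -0.04 with 1 library left out. Col4a3, which forms the trimer of the kidney filter with Col4a4 and Col4a5, was at 4.82, 4.46 and 5.97 CPM in control hearts, 12.0, 3.15 and 20.8 CPM in TAC hearts and 7.64, 12.2 and 5.42 CPM in KO-TAC hearts. Col15a1, a basement membrane-zone collagen of the multiplexin family, was at 101.4, 96.5 and 101.4 CPM in control hearts, 172.8, 83.7 and 184.9 CPM in TAC hearts and 95.8, 117.6 and 93.4 CPM in KO-TAC hearts.

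Type VI chains split. Col6a2 was at 82.8, 82.4 and 79.5 CPM in control hearts, 131.5, 73.5 and 125.4 CPM in TAC hearts and 77.1, 101.0 and 81.0 CPM in KO-TAC hearts. Col6a1 was at 79.6, 80.8 and 82.0 CPM, then 106.5, 67.3 and 144.5 CPM, and then 77.4, 89.0 and 70.5 CPM. For both chains TAC replicates 1 and 3 were above the control hearts and TAC replicate 2 was below them. Col6a6 (ENSMUSG00000043719.14, chr9:105687809-105828160 in GRCm38, minus strand, overlapped by the antisense model Gm38314), which can take the place of the Col6a3 chain in the trimer, ran the other way, at 12.6, 14.4 and 13.8 CPM in control hearts, 5.83, 8.25 and 0.486 CPM in TAC hearts and 6.59, 3.51 and 11.3 CPM in KO-TAC hearts. All 6 loaded hearts lay below all 3 control hearts, TAC replicate 2 included. The TAC difference was -1.49 (SE 0.77, edgeR adjusted p = 0.28, limma-voom adjusted p = 0.021), and -0.96 without TAC replicate 3, where the gene was lowest. Its ratio to Col6a3 in length-scaled counts, which needs no library scaling, was 0.288, 0.366 and 0.363 in control hearts, 0.139, 0.239 and 0.00825 in TAC hearts and 0.179, 0.124 and 0.259 in KO-TAC hearts.

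Across the list, 6 genes were higher in every TAC heart than in every control heart (14.1% of all genes were): Col7a1, Col9a3, Col11a2, Col12a1, Col27a1 and Col28a1. Lower in every TAC heart were 2, Col6a6 and Col25a1 (14.0% of all genes). Of these, Col7a1, the anchoring fibril chain, was at 0.981 to 1.76 CPM in control and 1.87 to 7.02 CPM in TAC hearts, and Col27a1, a fibrillar chain of cartilage and other tissues, at 5.64 to 6.76 and 7.08 to 40.0 CPM. Col25a1, a transmembrane collagen, was at 0.506 to 0.646 and 0.359 to 0.421 CPM. The separation rests on few counts for Col25a1 (33 to 53 in a control and 27 to 31 in a TAC library) and for Col9a3 (15 to 27 and 35 to 66). The remaining members ranged between -0.04 (Col26a1) and 3.33 (Col9a2) in log2 difference. Col9a2 was at 0 to 0.388 CPM in control hearts and 0.312 to 4.11 CPM in TAC hearts, with an SE of 1.63. Among the low members, Col13a1, a transmembrane collagen, was at 1.05 to 1.59 CPM in control hearts and 1.05 to 2.65 CPM in TAC hearts, and Col20a1, a FACIT, at 0.827 to 1.98 and 1.47 to 6.11 CPM.

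Ratios between chains of 1 fibre system, taken within a library, do not depend on scaling between libraries. Col3a1 to Col1a1 was 2.87, 2.66 and 2.55 in control hearts, 1.80, 2.03 and 1.88 in TAC hearts and 2.32, 2.01 and 2.45 in KO-TAC hearts. All TAC hearts, replicate 2 included, and all KO-TAC hearts lay below all control hearts. Col5a1 to Col5a2 was 1.45, 1.47 and 1.55 in control, 0.787, 1.27 and 0.528 in TAC and 0.859, 0.955 and 1.33 in KO-TAC hearts, again below every control heart in all 6 loaded hearts. Col1a1 to Col1a2, the chains of type I collagen, was 0.656, 0.633 and 0.685 in control hearts and 0.617, 0.602 and 0.615 in KO-TAC hearts, which all lay below the control hearts. The TAC hearts, at 0.737, 0.574 and 0.800, overlapped both groups. Col4a1 to Col4a2, transcribed from the head-to-head pair, stayed between 1.15 and 1.39 in all 9 hearts. Between TAC and control, overlap was seen for Col6a1 to Col6a2, Col1a1 to Col4a1, Col4a3 to Col4a4, Col4a5 to Col4a6 and Col8a1 to Col8a2. Col6a3 to Col6a2 and Col6a6 to Col6a3 were lower in every TAC heart than in every control heart. How often other gene pairs separate the groups was not counted. Of single genes, 14.1% were higher and 14.0% lower in every TAC heart than in every control heart. The number of hearts limits a test of any single ratio: an exact permutation test of 3 against 3 cannot go below 0.1 and was not run. Another transcript length scales a ratio by the same factor in every heart and leaves these orders as they are.

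**Figure D4:**
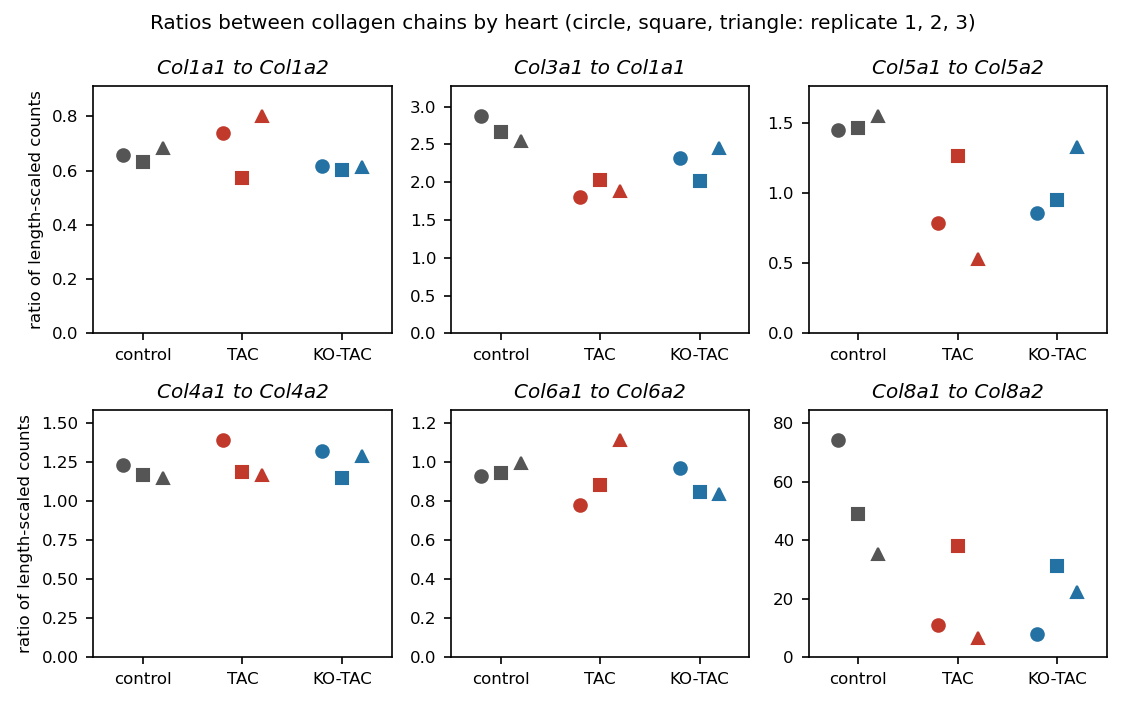
Ratios of length-scaled counts between collagen chains (y axes, linear from 0) in each heart of the 3 groups, with replicates 1, 2 and 3 as circle, square and triangle. For Col3a1 to Col1a1 the TAC hearts (1.80 to 2.03) lie below the control hearts (2.55 to 2.87), while Col4a1 to Col4a2 lies between 1.15 and 1.39 throughout.

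Comparison of KO-TAC with TAC asked which collagen genes differed when Myc was deleted in fibroblasts of loaded hearts. The median log2 difference of the 37 genes was -0.68 (0.01 over all genes), with 33 lower and 4 higher. None passed in edgeR (0% of all genes), with a lowest adjusted p of 0.65. At an unadjusted p under 0.05, 5 were lower (4.51% of all genes): Col4a1, Col4a2, Col4a6, Col11a2 and Col28a1. No member was higher at that level (2.94% of all genes). DESeq2 called 0 members, and limma-voom with quality weights called 1, Col18a1, lower (1.93% of all genes). Class medians were -1.18 for FACIT, -0.72 for fibrillar, -0.61 for type IV, -0.42 for the other chains and -0.35 for type VI genes. Without TAC replicate 3 they were -0.23, -0.16, -0.21, -0.08 and -0.13 in the same order, so that FACIT genes no longer stood apart. The median over the 37 genes was then -0.19, and without TAC replicate 2 it was -0.92, so the size of this difference rested on which TAC hearts were counted.

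In 4 members every KO-TAC heart lay below every TAC heart (4.80% of all genes did): Col4a2, Col4a6, Col11a2 and Col28a1. For Col4a2 the highest KO-TAC heart was at 347.6 CPM and the lowest TAC heart, replicate 2, at 370.2 CPM. Its difference was -0.73 (SE 0.32, edgeR adjusted p = 0.67), or -0.35 without TAC replicate 3, and its KO-TAC values lay around those of control hearts. Col4a1, its partner chain, was at -0.71 (SE 0.31, edgeR adjusted p = 0.67), or -0.41 without TAC replicate 3, with KO-TAC replicate 3 (460.0 CPM) just above TAC replicate 2 (451.5 CPM). Col28a1, a von Willebrand domain collagen of nerve, was at 1.21, 1.97 and 2.12 CPM in TAC hearts and 0.972, 0.281 and 0.347 CPM in KO-TAC hearts, beside 0.452, 1.20 and 0.849 CPM in control hearts. The 5 Schwann cell markers summed to 9.60, 11.1 and 10.9 CPM in control, 12.6, 7.81 and 10.3 CPM in TAC and 9.78, 4.93 and 6.45 CPM in KO-TAC hearts, with 0 of 5 higher in KO-TAC than in TAC (median -0.69), and their part in the Col28a1 values was not tested. The Col28a1 difference of -1.71 (SE 0.57, edgeR adjusted p = 0.65) was the lowest of the 37 and lay between -2.48 and -1.42 with any 1 library left out. Col4a6 was at 1.83, 1.36 and 3.15 CPM in TAC hearts and 1.27, 1.15 and 0.836 CPM in KO-TAC hearts (-0.96, SE 0.39, edgeR adjusted p = 0.66, and -0.55 without TAC replicate 3), and at 2.42, 1.43 and 2.0 CPM in control hearts. Col11a2 was at 6.40, 4.07 and 3.62 CPM in KO-TAC hearts, a difference of -0.86 (SE 0.29, edgeR adjusted p = 0.65). In 2 members, Col23a1 and Col25a1, every KO-TAC heart lay above every TAC heart (5.17% of all genes did). Col23a1, a transmembrane collagen, was at 2.46, 1.78 and 2.57 CPM in TAC hearts and 3.96, 2.68 and 2.93 CPM in KO-TAC hearts (0.49, SE 0.28, edgeR adjusted p = 0.69).

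The FACIT genes with high TAC values had lower means in KO-TAC hearts, with overlap. The KO-TAC difference from TAC was -1.41 for Col12a1 (SE 0.82, edgeR adjusted p = 0.70), -1.43 for Col22a1 (SE 0.73, edgeR adjusted p = 0.68) and -1.18 for Col16a1 (SE 0.61, edgeR adjusted p = 0.68). TAC replicate 2 lay below every KO-TAC heart for Col12a1 and Col22a1, and below KO-TAC replicates 1 and 2 for Col16a1. Without TAC replicate 3 these differences were -0.86, -0.83 and -0.28. For Col7a1 it was -1.17 (SE 0.53, edgeR adjusted p = 0.67) and -0.51 without TAC replicate 3, with 3.31, 1.87 and 7.02 CPM in TAC hearts and 2.77, 1.08 and 1.56 CPM in KO-TAC hearts. Type I chains were at -0.97 for Col1a1 (SE 0.47, edgeR adjusted p = 0.67) and -0.68 for Col1a2 (SE 0.40, edgeR adjusted p = 0.70), and Col3a1 at -0.72 (SE 0.45, edgeR adjusted p = 0.71). Without TAC replicate 3 they were -0.40, -0.23 and -0.15. Col8a1 was at -0.31 (SE 0.57, edgeR adjusted p = 0.86), at 0.02 without TAC replicate 3 and at -0.74 without TAC replicate 2. Col6a6 was at 0.56 (SE 0.76, edgeR adjusted p = 0.82; 0.03 without TAC replicate 3 and 1.18 without TAC replicate 2) and Col5a3 at 0.10 (SE 0.45, edgeR adjusted p = 0.95), both of which took the other sign in the limma-voom fit.

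Comparison of KO-TAC with control set loaded knockout hearts beside unloaded wild-type hearts. It shares its KO-TAC hearts and its control hearts with the comparisons above. The median log2 difference of the 37 genes was 0.41 (0.04 over all genes), with 26 higher and 11 lower, and none passed in edgeR (0% of all genes; lowest adjusted p of a member 0.83). At an unadjusted p under 0.05, 3 were higher (3.52% of all genes), Col8a1, Col8a2 and Col12a1, and 0 were lower (2.24%). DESeq2 called Col12a1 alone (0.305% of all genes were called higher) and limma-voom with quality weights called Col8a1 alone (2.40%). The class medians were 0.73 for FACIT, 0.41 for fibrillar, 0.26 for the other chains, -0.03 for type VI and -0.16 for type IV genes. The 3 KO-TAC hearts again differed, with medians relative to control of 0.48, 0.19 and 0.03 in replicates 1, 2 and 3, and the median over the 37 genes was 0.10 without KO-TAC replicate 1 and 0.22 without KO-TAC replicate 2.

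In 7 members every KO-TAC heart lay above every control heart (12.9% of all genes did): Col4a4, Col8a1, Col8a2, Col12a1, Col22a1, Col23a1 and Col27a1. The differences were 3.30 for Col8a2 (SE 1.05, edgeR adjusted p = 0.85), 2.97 for Col12a1 (SE 0.89, adjusted p of 0.83 in edgeR and 0.046 in DESeq2) and 1.57 for Col8a1 (SE 0.58, edgeR adjusted p = 0.85). The difference was 1.10 for Col22a1 (SE 0.73, edgeR adjusted p = 0.86). Col4a3, whose groups overlapped, was at 0.73 (SE 0.56, edgeR adjusted p = 0.87) and at 0.35 without KO-TAC replicate 2. In 3 members every KO-TAC heart lay below every control heart (13.6% of all genes did): Col4a5, Col4a6 and Col6a6. Their differences were -0.30 (SE 0.18), -0.84 (SE 0.39) and -0.93 (SE 0.76), with edgeR adjusted p of 0.86, 0.85 and 0.88. Col6a6 was at -0.61 without KO-TAC replicate 2 and -1.43 without KO-TAC replicate 3. Col4a2 was at -0.20 (SE 0.32, edgeR adjusted p = 0.93), or -0.06 without KO-TAC replicate 1. Col28a1 was at -0.62 (SE 0.56, edgeR adjusted p = 0.88), or -1.40 without KO-TAC replicate 1 and -0.28 without control replicate 2.

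Within the TAC and within the KO-TAC hearts, the summed markers of activated fibroblasts and of macrophages had the same order of hearts as the collagen medians. The resting fibroblast, endothelial, cartilage and valve, epicardial and smooth muscle lists broke this order in TAC hearts, in KO-TAC hearts or in both. With 3 hearts in a group few orders are possible, and how often other genes or lists share this order was not counted. A match or a break therefore does not tell which cells the collagen values come from. Resting fibroblast sums were 2494, 1369 and 2334 CPM in TAC replicates 1, 2 and 3. Endothelial sums were 1404, 1076 and 1292 CPM in KO-TAC replicates 1, 2 and 3. The 8 markers of activated fibroblasts, led by Postn, Cilp and Acta2, summed to 98.4, 105.7 and 101.7 CPM in control hearts, 772.5, 147.0 and 1728 CPM in TAC hearts and 464.2, 427.7 and 106.2 CPM in KO-TAC hearts. These sums were low in TAC replicate 2 and KO-TAC replicate 3, the loaded hearts with the lowest collagen medians. The 8 markers of resting fibroblasts summed to 1246 to 1433 CPM in control hearts, 1369 to 2494 CPM in TAC hearts and 1541 to 1717 CPM in KO-TAC hearts, and the 8 endothelial markers to 1117 to 1195, 1162 to 2997 and 1076 to 1404 CPM. Cardiomyocyte markers ran the other way, with the lowest sum (10790 CPM) in TAC replicate 3. All markers of these 4 lists were detected. Smooth muscle and pericyte markers (8 of 8 tested) summed to 1116 to 1173 CPM in control hearts, 511.9 to 976.6 CPM in TAC hearts and 767.6 to 1107 CPM in KO-TAC hearts. The sum did not describe the list as a set: 4 of the 8 markers were higher in TAC than in control, with a median log2 difference of -0.04. Abcc9, an abundant marker of the list, had a mean of 456.1 CPM in control and 164.8 CPM in TAC hearts. Cartilage and valve markers (4 of 7 tested, 2 listed at 0 in all libraries) summed to 2.74 to 4.02, 4.41 to 12.6 and 3.92 to 4.88 CPM. Epicardial and mesothelial markers (6 of 6 tested) summed to 7.42 to 15.0 CPM in control hearts and 5.88 to 14.1 CPM in KO-TAC hearts. In TAC replicates 1, 2 and 3 they summed to 25.3, 25.8 and 26.0 CPM. The median log2 value of this list relative to the control mean was 1.43, 1.51 and -0.15 in the same hearts, so similar sums went with unlike medians. Macrophage markers (8 of 8 tested) summed to 232.8 to 252.2, 215.8 to 441.6 and 234.7 to 393.9 CPM in control, TAC and KO-TAC hearts. Lung epithelium markers were at or near 0 (0 of 4 tested, at most 0.109 CPM in sum). The part of these cell types in the collagen values was not tested.

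**Figure D5:**
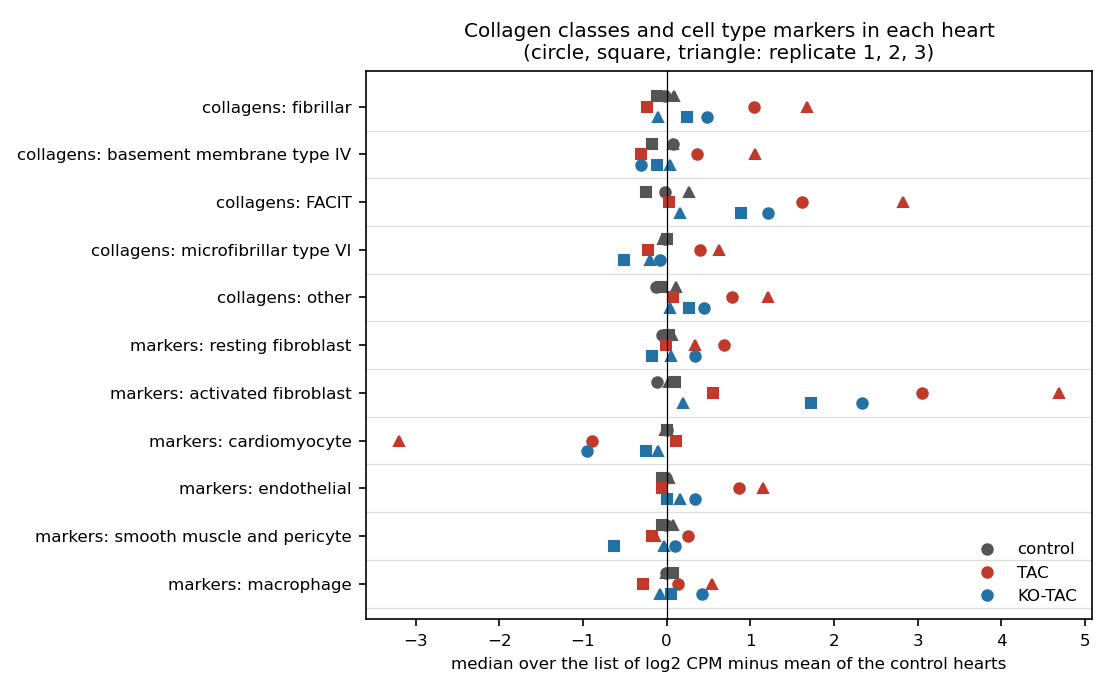
Median over each collagen class and each marker list (rows) of log2 CPM minus the mean of the control hearts (x axis), with 1 point per heart coloured by group and replicates 1, 2 and 3 as circle, square and triangle. FACIT medians reach 1.62 and 2.83 in TAC replicates 1 and 3, where activated fibroblast medians reach 3.05 and 4.69, and cardiomyocyte markers are at -3.20 in TAC replicate 3.

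Genes that act on collagen were read from 4 lists. Of 25 genes of collagen synthesis and export, 24 were tested and 17 were higher in TAC than in control (51.5% of all genes were), with a median of 0.52. At an unadjusted p under 0.05 in edgeR, 10 were higher (13.2% of all genes were) and 1, P3h4, was lower (8.08% of all genes were). The 3 most abundant were Sparc, Serpinh1 (the collagen chaperone HSP47) and P4hb (a subunit of prolyl 4-hydroxylase). Serpinh1 was at 114.0 ± 6.27 CPM in control hearts, 265.5 ± 94.7 CPM in TAC hearts and 136.1 ± 15.1 CPM in KO-TAC hearts (SD, n = 3). Its log2 difference of TAC from control was 1.22 (SE 0.28), with adjusted p of 0.13 in edgeR and 0.0011 in DESeq2. From TAC to KO-TAC it was -0.96 (SE 0.28), with adjusted p of 0.55 and 0.044. P4hb was at 166.7 ± 7.41, 172.5 ± 12.6 and 161.0 ± 14.1 CPM. Sparc, a collagen-binding matrix protein, was at 251.0 ± 19.0, 716.1 ± 456.7 and 323.0 ± 106.2 CPM.

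Of 17 genes of procollagen processing and crosslinking, 14 were higher in TAC than in control with a median of 1.0, and 9 were so at an unadjusted p under 0.05, beside the same 51.5% and 13.2% of all genes. At that level 1 gene, Adamts3, was lower, with a log2 difference of -1.34 (SE 0.35, adjusted p of 0.14 in edgeR and 0.0089 in DESeq2). The 3 most abundant were Dcn, Tgm2 and Pcolce. Dcn was at 313.2 ± 19.0, 631.7 ± 281.0 and 532.3 ± 70.5 CPM in control, TAC and KO-TAC hearts, and Tgm2 at 186.4 ± 18.0, 284.0 ± 96.2 and 222.6 ± 53.4 CPM. Pcolce, the enhancer of C-propeptide removal, was at 33.4 ± 1.95, 108.3 ± 67.5 and 57.6 ± 14.5 CPM. Of 11 tested collagen receptors and uptake genes 8 were higher, 4 of them at an unadjusted p under 0.05, with a median of 0.52. The summed level of this list was nevertheless lower in all 3 TAC hearts (1090 to 1878 CPM) than in control hearts (1956 to 2032 CPM). Its most abundant gene, Cd36, a scavenger and fatty acid receptor, was at 1493 ± 59.5, 824.8 ± 443.4 and 998.2 ± 400.0 CPM in control, TAC and KO-TAC hearts, a TAC difference of -0.86 (SE 0.45, edgeR adjusted p = 0.29). Itgb1, the beta chain of collagen-binding integrins, was at 336.9 ± 11.1, 299.8 ± 59.6 and 275.8 ± 45.2 CPM. Adgrg1, a receptor for type III collagen, was at 42.5 ± 4.93, 96.8 ± 31.6 and 44.7 ± 6.15 CPM. Its log2 difference of TAC from control was 1.19 (SE 0.25), with adjusted p of 0.13 in edgeR and 0.0016 in DESeq2. From TAC to KO-TAC it was -1.11 (SE 0.25), with adjusted p of 0.35 and 0.0088. Of 10 tested genes of collagen breakdown 9 were higher, 4 of them at an unadjusted p under 0.05, with a median of 0.72. Timp3, an inhibitor of matrix metalloproteinases, was at 215.0 ± 15.7, 472.2 ± 35.5 and 281.0 ± 112.6 CPM, and Mmp2, the gelatinase, at 45.1 ± 3.13, 83.0 ± 27.7 and 54.8 ± 12.1 CPM. Timp2 was at 82.2 ± 3.57, 108.5 ± 28.6 and 97.3 ± 11.7 CPM, a TAC difference of 0.40 (SE 0.23, edgeR adjusted p = 0.33). In KO-TAC against TAC the medians of the 4 lists were -0.44, -0.74, -0.17 and -0.41 in the order given, and no gene of the 4 lists passed edgeR's test in any of the 3 comparisons.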

How the data were processed

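The 9 libraries of total heart RNA (Trizol extraction and a directional NEBNext kit, as the labels' protocols state) came as 1 table. Its values are whole-number counts per gene symbol that the authors deposited, apparently unnormalized. The submitters' processing notes name StringTie 2.2.1, HISAT2 2.2.1, DESeq2 1.42.0, Trim Galore 0.6.10 and SAMtools 1.15, and as builds mm10 and GRCm38. Which of them counted the reads, with what annotation and strand setting, is not given in these sources. In 9 of 9 libraries more genes had a count of 4 than of 3 or of 5, so a unit of count may be less than 1 read pair, and counts divided by 4 were tried as an alternative added after seeing the data.

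The test was the two-sided quasi-likelihood test of edgeR 4.0.16 (R 4.3.3) with TMM scaling, a filterByExpr minimum of 10 counts, 1 fit of all 9 libraries with group as the term, and Benjamini-Hochberg adjustment over the 19051 genes kept, called at 0.05. The biological coefficient of variation was 42.1%. DESeq2 1.42.0 and limma-voom (limma 3.58.1) were alternatives, beside other scalings, filters and fits, the replicate block and each library left out in turn. The fit was tested on simulated data. Log2 values by heart used a prior count of 2. Lengths and coordinates are from GENCODE M21 (GRCm38), with the union of exons as an added alternative. Values by heart are given for the 2 members of highest mean CPM in each class and, in each comparison, the 5 with the largest difference in each direction among those of mean CPM of at least 1; genes beyond that rule, among them Col1a1, Col11a2 and those in the chain ratios, were chosen after their values were seen. The members and gene lists were chosen with earlier results of these data known.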

Additional observations from a re-analysis of the deposited data

How the results depend on the processing

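The count of collagen genes passing at an adjusted p under 0.05 depended on the tool and on 1 heart. In TAC against control it was 0 in edgeR, 8 in DESeq2 and 21 in limma-voom with quality weights, and 0 to 20 with 1 library left out (20 without TAC replicate 2). In KO-TAC against TAC it was 1 in limma-voom, and in KO-TAC against control 1 in DESeq2 and 1 in limma-voom. The median log2 difference in KO-TAC against control, 0.41, was 0.66 with library size alone, 0.13 in limma-voom and 0.10 to 0.52 with 1 library left out. Library size alone put the median of all genes at 0.29 in TAC against control and 0.28 in KO-TAC against control, from 0.03 and 0.04 with TMM. With that scaling the sign turned for Col4a5 (0.18) and Col5a3 (0.24) in TAC against control, Col5a3 (-0.10) in KO-TAC against TAC and Col4a2 (0.01) in KO-TAC against control. In limma-voom it turned for Col5a3 (-0.29) and Col6a6 (-0.01) in KO-TAC against TAC. Leaving out 1 library gave -0.51 to 0.14 for Col5a3 in TAC against control, and in KO-TAC against TAC -0.73 to 0.00 for Col14a1, -0.56 to 0.48 for Col5a3 and -0.74 to 0.05 for Col8a1. Deviations from the group mean correlated at -0.255 to 0.124 for hearts with the same number in their titles. For other pairs they correlated at -0.434 to 0.355. With 3 hearts in a group, such values cannot decide whether the numbers pair the hearts. The count columns number the TAC hearts 2, 3 and 4 instead, and by those numbers the pairs that share 2 or 3 correlated at -0.029 to 0.327. With the replicate block by title number 0 members passed in each comparison, with medians of 0.78, -0.61 and 0.37. The cause of these changes was not tested. Col11a1 had 0 to 31 counts in a library, Col26a1 0 to 30, Col9a3 4 to 87 and Col25a1 27 to 92, so their differences rest on few counts.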
